A study of Homo sapiens with 14 samples.

Results

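Cultures of PANC-1, an established human pancreatic ductal carcinoma line, were compared after 24 h and after 12 h in the vehicle DMSO alone. The comparison took every library with those labels, which is 4 of the 14 libraries of the study: DMSO 12 h replicates 1 and 2 and DMSO 24 h replicates 1 and 2. The other 10 libraries were DMSO at 0 and 3 h and PA (proanthocyanidins, a class of plant polyphenol), used at 20 micrograms per ml, for 3, 12 and 24 h, again in groups of 2. All groups were grown as monolayers in Dulbecco's medium with fetal bovine serum, and neither the DMSO concentration nor any change of medium between the times is given in the sources used here. The labels tie neither the times nor the replicate numbers to separate cultures beyond the words "biological replicate", so a p-value here speaks only of how far these libraries spread, and that spread may be technical. Of 28120 genes counted, 15181 were tested and 12939 had too few reads. Values are read counts scaled to library size (CPM) after trimmed-mean normalisation. A change is the log2 of the level at 24 h over that at 12 h, given ± SE, and a gene passed when its adjusted p in edgeR was under 0.05. RNA came from whole cultures, so fewer cells of a kind and less RNA per cell cannot be told apart.

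Cells make cholesterol from acetyl-CoA through the mevalonate pathway, and the genes for its enzymes share a regulator, the SREBP factors. When sterol is plentiful in the endoplasmic reticulum, INSIG proteins hold SREBP and its escort SCAP there, and when sterol runs low SREBP is cut free and turns on sterol and fatty acid genes. A second well-known programme in attached epithelial cells is run by YAP with the TEAD factors and by TGF-beta with the SMAD factors. YAP is held in the nucleus in spread, sparse and serum-fed cells and leaves it as cells become crowded, and its targets include secreted matricellular proteins such as CTGF and CYR61. The EGF receptor and its ligands, among them HBEGF, feed the ERK pathway and its immediate early genes.

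Sequencing gave 26403984 reads for DMSO 12 h replicate 1, 31076409 for its replicate 2, 30013257 for DMSO 24 h replicate 1 and 29506963 for its replicate 2, within the range of 26403984 to 35213154 over the study, and a count of 0 allows 0.0909 to 0.103 CPM in them (3 reads, counting error only). Replicates had Spearman correlations across genes of 0.996 at both times. The keratin genes of this line were abundant in all 4 libraries, with KRT8 from 2344 to 2900 CPM and KRT18 from 2039 to 2372 CPM. Summed markers of fibroblasts were 8.49 to 11.2 CPM at 12 h and 13.1 to 13.8 CPM at 24 h, most of it COL1A1. Leukocyte markers summed to 41.3 to 44.9 and 33.3 to 39.1 CPM, endothelial markers to at most 1.3 CPM, and acinar and islet markers to at most 0.0909 CPM, and of these 25 markers 5 had enough reads to be tested in edgeR, with 1 at an unadjusted p under 0.05 and 0 passing there or in DESeq2. Library composition also moved with time: longer transcripts were relatively more abundant at 12 h, with a slope of 0.109 to 0.146 log2 per doubling of length against 0.0221 to 0.0312 at 24 h. The slope on GC content was -0.319 to -0.293 per 10 points at 12 h and -0.266 to -0.217 at 24 h. Each change below was therefore also computed after correction of every library for its trend on both. RNAs kept in the nucleus, MALAT1 and NEAT1, summed to 10500 to 13700 CPM at 12 h and 16200 to 19200 CPM at 24 h, and their part in the results was not tested.

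Between 12 and 24 h, 356 of the 15181 genes passed (2.35%), 114 higher (0.751%) and 242 lower (1.59%), while the median change of all genes was -0.01. Of these, 50 rose and 42 fell at least 2-fold, and 2672 genes had an unadjusted p under 0.05. Among the gene lists with at least 3 tested members, enzymes of sterol synthesis had the highest median change and TGF-beta and YAP targets the lowest. The genes called lower had a median transcript length of 5570 nt and those called higher 2270.5 nt, against 3084 nt for all tested. The GC and length correction raised the number to 925, of which 351 were higher and 574 lower. It kept 344 of the 356 calls in the same direction. The totals depended on the spread used and on each library. With the spread of the 8 DMSO libraries alone 1912 genes passed, 356 of the 356 among them. In all 356 both 24 h libraries lay beyond both 12 h libraries, which largely fixes their direction when 1 library is left out. Leaving out DMSO 12 h replicate 1 left 15 genes, DMSO 12 h replicate 2 left 5, DMSO 24 h replicate 1 left 3 and DMSO 24 h replicate 2 left 58, and all 356 kept their direction in each case.

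In sterol synthesis 13 of its 20 measured members rose and 0 fell, with a median of 0.86, against 0.751% of all genes tested that rose. All 20 were above 0, against 7441 of the 15181 genes. In all 20 both 24 h libraries lay above both 12 h libraries, as they lay beyond them in either direction for 9362 of the 15181. This list was compared with its rise already known, so its direction is no independent evidence. Short promoter strings are shown because these genes moved together. RefSeq windows of 300 bases (GRCh38.p14, from 250 bases before the gene's start to 50 after) were found for 15 of the 20, and both strands were searched, taking the window with most matches. The string CCAAT, the core of the box bound by NF-Y, a known partner of SREBP, occurred in 13 of the 15 (86.7%) against 39.7% of 27305 genes with a window. It occurred at least 2 times in 10 of the 15 (66.7%) against 12.9%. The sterol element core TCACNCCAC occurred in 0 of the 15 and in 1.39% of all, and the looser TCACNCNAC, which contains it, in 2 of the 15 (13.3%) and in 3.13%. These strings were chosen after the values were seen, and a match is a run of letters, not a measured site. The windows of MVD (chr16:88663042-88663341, minus strand), with 3 matches, and HMGCS1 (chr5:43313363-43313662, minus strand), with 2, are given 5′ to 3′ with CCAAT, or ATTGG where it lies on the other strand, in capitals.
MVD promoter: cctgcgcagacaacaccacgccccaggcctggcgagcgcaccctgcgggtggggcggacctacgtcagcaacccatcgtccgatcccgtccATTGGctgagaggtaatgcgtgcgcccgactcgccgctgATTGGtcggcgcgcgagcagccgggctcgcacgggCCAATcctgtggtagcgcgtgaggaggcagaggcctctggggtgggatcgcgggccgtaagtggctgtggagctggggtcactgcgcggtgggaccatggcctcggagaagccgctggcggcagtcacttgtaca
HMGCS1 promoter: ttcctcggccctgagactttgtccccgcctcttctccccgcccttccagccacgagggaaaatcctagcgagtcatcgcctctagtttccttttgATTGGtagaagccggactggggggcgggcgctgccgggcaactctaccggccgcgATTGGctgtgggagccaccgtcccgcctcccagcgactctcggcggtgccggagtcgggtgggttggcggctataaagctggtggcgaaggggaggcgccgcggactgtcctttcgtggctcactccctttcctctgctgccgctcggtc

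In the order of the pathway, ACAT2, which joins acetyl-CoA units, stood at 167 and 163 CPM at 12 h and at 347 and 267 CPM at 24 h. It rose by 0.90 ± 0.138 (adjusted p = 0.00777). HMGCS1 (ENSG00000112972.13, chromosome 5, 43289395 to 43313512, minus strand), the synthase that makes HMG-CoA, stood at 25.2 and 22.4 CPM and then at 92.1 and 61.5 CPM. HMGCS1 was 3.23-fold higher at 24 h, a rise of 1.69 ± 0.199 (adjusted p = 0.00144). The mevalonate kinase gene MVK rose by 1.08 ± 0.205, from 11.9 and 9.002 CPM to 25.3 and 19.1 CPM. MVD (ENSG00000167508.9, chromosome 16, 88651935 to 88663161, minus strand), which makes isopentenyl diphosphate, rose from 17.5 and 16.1 CPM to 49.2 and 40.4 CPM, by 1.42 ± 0.206 (adjusted p = 0.00648). FDPS, the farnesyl diphosphate synthase, rose by 0.82 ± 0.182 (adjusted p = 0.0343). In every gene named so far the higher of the 12 h libraries was below the lower of the 24 h libraries. In 7 of the 20 the change did not pass. Of these, the phosphomevalonate kinase PMVK stood at 0.29 ± 0.203 (adjusted p = 0.498), and the isomerase IDI1, at 0.342 and 0.424 CPM at 12 h and 0.553 and 0.447 CPM at 24 h, was close to the limit of detection throughout.

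Past the branch point, the squalene synthase FDFT1 stood at 72.2 and 66.7 CPM at 12 h and 152 and 130 CPM at 24 h, a rise of 1.02 ± 0.192 (adjusted p = 0.0182). SQLE, the epoxidase, rose from 153 and 139 CPM to 261 and 210 CPM, by 0.69 ± 0.132 (adjusted p = 0.019), and the cyclase LSS by 0.83 ± 0.167 (adjusted p = 0.0223). Among the later enzymes, HSD17B7, a sterol ketoreductase, was 19.4 and 19.0 CPM and then 45.3 and 41.8 CPM, a rise of 1.18 ± 0.181 (adjusted p = 0.00777). The sterol reductase TM7SF2 rose by 1.25 ± 0.234, MSMO1, the methylsterol oxidase, by 0.95 ± 0.232, and the isomerase EBP by 0.91 ± 0.171. DHCR7, the reductase of a last step, stood at 0.52 ± 0.185 (adjusted p = 0.161), with both 24 h libraries above both 12 h ones. CYP51A1 (0.63 ± 0.186, adjusted p = 0.0981), NSDHL (0.51 ± 0.138, adjusted p = 0.0763) and SC5D (0.48 ± 0.221, adjusted p = 0.283) did not pass either. After the GC and length correction 15 of the 20 passed and the median was 0.81. Without DMSO 12 h replicate 1, DMSO 12 h replicate 2, DMSO 24 h replicate 1 and DMSO 24 h replicate 2, the number of members past the threshold was 1, 0, 0 and 7, and the median 0.96, 0.80, 0.70 and 0.996.

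**Figure D1:**
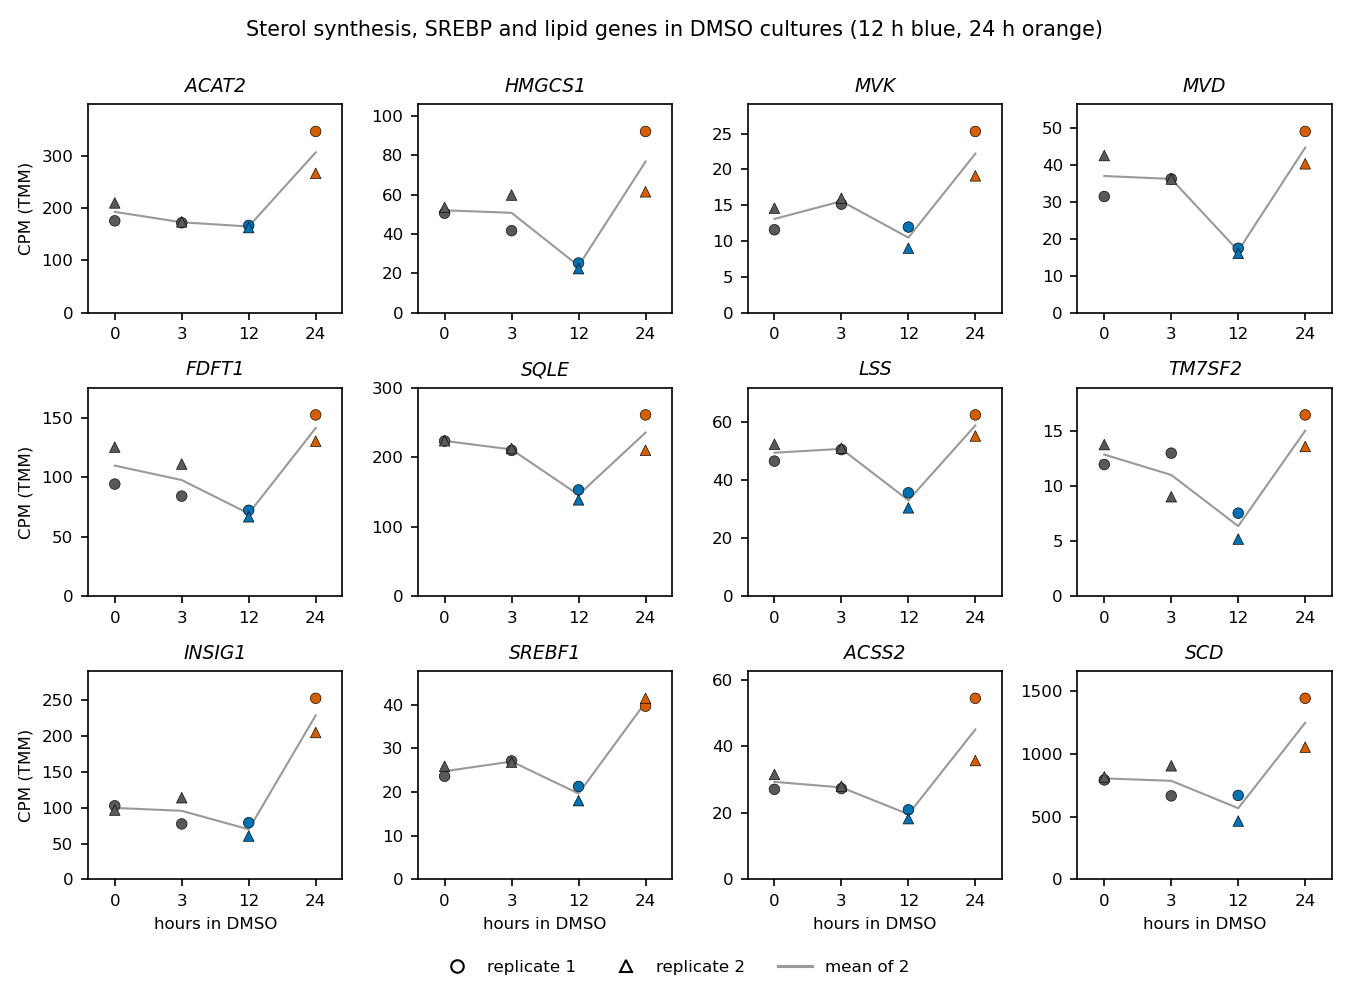
Level in CPM (vertical axes, from 0, each with its own scale) of 12 sterol, SREBP and lipid genes against hours in DMSO (horizontal axes), with replicate 1 as circles, replicate 2 as triangles and the mean of the 2 as a line. The 12 h libraries are blue and the 24 h libraries orange: HMGCS1 stood at 25.2 and 22.4 CPM at 12 h and at 92.1 and 61.5 CPM at 24 h, with 0 h in between, and SCD at 670 and 466 CPM and then at 1444 and 1055 CPM.

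In 18 of the 20 sterol genes the mean at 12 h was the lowest of the 4 DMSO times, the exceptions being CYP51A1 and IDI1. This dip was known when the comparison was chosen, so neither this count nor the falls from 0 to 12 h are independent evidence. The 12 h mean was also lowest in 18 of 20 ribosomal protein genes and 11 of 15 nuclear respiratory chain genes. All 20 and all 15 stood higher at 24 h than at 12 h, so 24 h could not be their lowest time. The 12 h mean was lowest in 0 of 14 matrix genes, which all stood lower at 24 h, so that count was fixed in advance. The share over all genes was not computed. At 0 h HMGCS1 stood at 50.6 and 53.5 CPM, MVD at 31.5 and 42.6 CPM and HSD17B7 at a mean of 37.8 CPM. In DMSO at 12 h minus 0 h, 221 genes passed (1.46%), and of the sterol list 5 of 20 members fell and 0 rose, with a median of -0.43. The 5 were HMGCS1 (-1.13), MVD (-1.15), HSD17B7 (-0.98), TM7SF2 (-1.02) and SQLE (-0.62). In DMSO at 24 h minus 0 h, 373 genes passed (2.46%), of which 1 was a sterol gene, ACAT2 (0.67, adjusted p = 0.0209), and the median of the list was 0.36. These comparisons share the 12 h or the 24 h libraries with the main one, so their values are only set side by side.

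Of the genes that control SREBP and LDL uptake, 2 of 10 tested rose and 0 fell, against 0.751% higher among all genes tested. Their median was 0.21, and 0.08 without DMSO 24 h replicate 1. INSIG1 (ENSG00000186480.11, chromosome 7, 155297776 to 155310235, plus strand), itself an SREBP target, stood at 79.3 and 60.7 CPM at 12 h and at 253 and 205 CPM at 24 h. Both 24 h libraries were far above both 12 h ones, a 3.27-fold rise of 1.71 ± 0.182 (adjusted p = 0.00117), and INSIG1 passed without any of the 4 libraries (1.55 to 1.95). SREBF1, which encodes the SREBP form tied to fatty acid genes, rose from 21.3 and 18.0 CPM to 39.6 and 41.4 CPM, by 1.04 ± 0.215 (adjusted p = 0.0251), and passed in 0 of the 4 cases that left out a library. SREBF2, which encodes the form tied to sterol genes, stood at 0.19 ± 0.163 (adjusted p = 0.594), SCAP at -0.23 ± 0.193 and INSIG2 at 0.22 ± 0.182. STARD4, a cytosolic sterol carrier, stood at 1.03 ± 0.270 (adjusted p = 0.0634). In the list of LXR and cholesterol efflux genes, which answer to excess sterol, 0 of 9 tested passed in edgeR (3 at an unadjusted p under 0.05, and 1 in DESeq2) and the median was -0.04. The efflux pump ABCA1 stood at 3.63 and 2.64 CPM at 12 h and 2.95 and 2.84 CPM at 24 h, and its regulator NR1H3 changed by 0.75 ± 0.188 (adjusted p = 0.0528).

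Of 14 tested fatty acid synthesis genes 4 rose and 0 fell, with a median of 0.26. Among all 15181 genes 114 rose (0.751%) and 242 fell (1.59%). ACSS2, which turns acetate into acetyl-CoA, rose from 20.9 and 18.3 CPM to 54.4 and 35.7 CPM, by 1.20 ± 0.226 (adjusted p = 0.0187). SCD, the desaturase that makes oleate, stood at 670 and 466 CPM at 12 h and 1444 and 1055 CPM at 24 h. SCD rose by 1.14 ± 0.198 (adjusted p = 0.0129). The fatty acid synthase FASN rose by 0.88 ± 0.212 (adjusted p = 0.047) and the desaturase FADS2 by 0.76 ± 0.173 (adjusted p = 0.0374). ACLY, which supplies cytosolic acetyl-CoA, stood at 0.52 ± 0.138 (adjusted p = 0.067), the carboxylase ACACA at 0.31 ± 0.155 (adjusted p = 0.321) and the elongase ELOVL6 at 0.20 ± 0.251 (adjusted p = 0.754). After the GC and length correction 7 of the 14 passed, all higher, against 351 higher of all 15181 genes, and the median was 0.44. Without DMSO 12 h replicate 1 the median was 0.41. Leaving out DMSO 12 h replicate 1, DMSO 12 h replicate 2, DMSO 24 h replicate 1 and DMSO 24 h replicate 2 left 1, 0, 0 and 2 members past the threshold.

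The next rises are the 12 largest among genes with a mean of at least 2 CPM and a symbol that is no clone name. The rule also asked for groups that do not overlap, which largely fixes their direction when 1 library is left out. Besides INSIG1, HMGCS1 and MVD, these 12 were spread over several functions. ALDOC, an aldolase of glycolysis, stood at 4.52 and 2.64 CPM at 12 h and 17.2 and 9.10 CPM at 24 h. It rose by 1.88 ± 0.344 (adjusted p = 0.0163), with a range of 1.35 to 2.35 when a library was left out. PTGES, which makes prostaglandin E, rose by 1.82 ± 0.286 (adjusted p = 0.00873), from 1.88 and 1.27 CPM to 5.19 and 5.94 CPM. DHRS3, a reductase that turns retinal into retinol, rose from 21.1 and 15.6 CPM to 60.3 and 59.9 CPM, by 1.71 ± 0.179 (adjusted p = 0.00117), and passed without any of the 4 libraries. RHOV, an atypical small GTPase, was 5.92 and 6.12 CPM and then 18.3 and 15.3 CPM, a rise of 1.48 ± 0.221 (adjusted p = 0.00732). The cell cycle brakes CDKN1C (1.38 ± 0.262, adjusted p = 0.019) and CCNG2 (1.30 ± 0.196, adjusted p = 0.00732) rose together with the glucose carrier SLC2A12 (1.34 ± 0.253, adjusted p = 0.0187). VWA5A rose by 1.34 ± 0.290 (adjusted p = 0.0313) and the epithelial transcription factor ELF3 by 1.42 ± 0.271 (adjusted p = 0.019), from 12.6 and 7.67 CPM to 29.2 and 25.2 CPM. DEPTOR, an inhibitor of mTOR (1.28 ± 0.247, adjusted p = 0.0196), and PIK3IP1, an inhibitor of PI3-kinase (1.19 ± 0.278, adjusted p = 0.0412), were picked after their values were seen and also rose. Of the 12 largest rises 3, 2, 2 and 8 still passed without DMSO 12 h replicate 1, DMSO 12 h replicate 2, DMSO 24 h replicate 1 and DMSO 24 h replicate 2, and 12 of 12 kept their direction.

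A further rise belongs to an overlapping gene. The antisense RNA CTD-2636A23.2 (chromosome 5, 43287601 to 43290839, plus strand) shares the 3′ end of HMGCS1 on the opposite strand and rose by 1.83 ± 0.176 (adjusted p = 0.00104), from 31.5 and 29.7 CPM to 126 and 91.8 CPM. In the authors' own RPKM table the same RNA stood at a mean of 0.01 at 12 h and 0.005 at 24 h, where HMGCS1 stood at 6.67 and 21.2. The deposited tables thus differ for this gene, no source used here gives the strand setting of the counting, and its reads cannot be told apart from those of HMGCS1. Its change was larger than all but ALDOC among the 12 rises above, which leave out genes with clone names, and it was named after its values were seen.

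Among glycolysis genes 2 of 21 rose and 1 fell, with a median of 0.27, where 0.751% of all genes tested rose and 1.59% fell. Besides ALDOC, PFKFB4, which sets the level of fructose 2,6-bisphosphate, rose by 1.13 ± 0.243 (adjusted p = 0.0313), from 9.52 and 7.39 CPM to 21.1 and 15.8 CPM. The hexokinase HK2 fell by 0.54 ± 0.121 (adjusted p = 0.0348), from 68.8 and 69.6 CPM to 46.7 and 48.2 CPM. GAPDH stood at 1762 and 1857 CPM and then at 2459 and 2467 CPM, a change of 0.44 ± 0.154 that did not pass (adjusted p = 0.15). Of 17 hypoxia genes 1 rose, the mTORC1 inhibitor DDIT4 (1.10 ± 0.173, adjusted p = 0.00873), and 1 fell, the lipase inhibitor ANGPTL4 (-0.78 ± 0.172, adjusted p = 0.0335). Leaving out a library ended each of these calls in at least 3 of 4 cases: ALDOC and DDIT4 passed only without DMSO 24 h replicate 2 and the other genes in 0 cases.

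Of 14 TGF-beta and YAP targets 7 fell and 0 rose, with a median of -0.62, the lowest of the lists with at least 3 tested members. The share that fell among all genes tested was 1.59%. Of the 14, 13 were below 0 and 1 above, against 7740 below 0 of the 15181 genes tested. In 14 of 14 the 12 h and 24 h libraries did not overlap, in either direction, as in 9362 of the 15181. The string GGAATG, the core of the TEAD element, occurred in 7 of the 10 members with a RefSeq window (70.0%) against 16.7% of 27305 genes, and at least 2 times in 2 of the 10 (20.0%) against 1.7%. The short SMAD element CAGAC occurred in 9 of the 10 (90.0%) against 13649 of 27305 genes, and the SMAD palindrome GTCTAGAC, which does not contain CAGAC, in 0 of the 10 against 0.256%. Both strands were searched, and these strings too were chosen after the values were seen. The windows of CTGF, listed by RefSeq as CCN2 (chr6:131951323-131951622, minus strand), with 3 matches, and ANKRD1 (chr10:90921038-90921337, minus strand), with 2, are shown because both genes were among the falls. They are written 5′ to 3′ with GGAATG in capitals, or CATTCC where it lies on the other strand.
CTGF promoter: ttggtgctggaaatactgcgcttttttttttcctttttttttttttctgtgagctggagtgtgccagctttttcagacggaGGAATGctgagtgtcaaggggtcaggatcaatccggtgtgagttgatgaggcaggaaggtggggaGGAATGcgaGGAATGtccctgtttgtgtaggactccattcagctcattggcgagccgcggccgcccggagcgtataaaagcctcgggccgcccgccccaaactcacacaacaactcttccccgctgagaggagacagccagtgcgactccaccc
ANKRD1 promoter: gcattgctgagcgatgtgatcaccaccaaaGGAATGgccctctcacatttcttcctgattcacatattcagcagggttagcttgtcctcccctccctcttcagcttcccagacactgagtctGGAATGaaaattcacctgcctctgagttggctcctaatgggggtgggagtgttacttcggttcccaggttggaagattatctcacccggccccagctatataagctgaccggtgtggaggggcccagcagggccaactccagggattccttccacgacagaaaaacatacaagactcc

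CTGF (ENSG00000118523.5, chromosome 6, 131948176 to 131951373, minus strand), a secreted matricellular protein and classic YAP target, stood at 80.0 and 96.4 CPM at 12 h and at 28.5 and 35.7 CPM at 24 h. It fell by 1.46 ± 0.187 (adjusted p = 0.00309), which is 2.75-fold lower. Its relative CYR61 fell from 428 and 472 CPM to 239 and 289 CPM, by 0.77 ± 0.173 (adjusted p = 0.0358). ANKRD1, a nuclear ankyrin repeat cofactor, fell from 12.4 and 16.2 CPM to 5.13 and 7.22 CPM, by 1.21 ± 0.216 (adjusted p = 0.0145), and AMOTL2, which binds YAP at junctions, by 0.83 ± 0.167 (adjusted p = 0.0223). Each lower 12 h library was above the higher 24 h library. THBS1, a matricellular activator of TGF-beta, fell from 106 and 97.8 CPM to 41.3 and 46.6 CPM, by 1.21 ± 0.215 (adjusted p = 0.0144), and CRIM1 by 0.82 ± 0.182 (adjusted p = 0.0342). The receptor kinase AXL (-0.47 ± 0.144, adjusted p = 0.106), the feedback kinase LATS2 (-0.41 ± 0.160, adjusted p = 0.203) and the TGF-beta inhibitor SMAD7 (-0.41 ± 0.174, adjusted p = 0.24) did not pass, nor did TGFBI (-0.12 ± 0.135, adjusted p = 0.724). After the GC and length correction 8 of 14 passed, all lower, with a median of -0.53. Without DMSO 12 h replicate 1, DMSO 12 h replicate 2, DMSO 24 h replicate 1 and DMSO 24 h replicate 2, 2, 0, 0 and 3 members passed, and the median was -0.65, -0.51, -0.53 and -0.74.

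**Figure D2:**
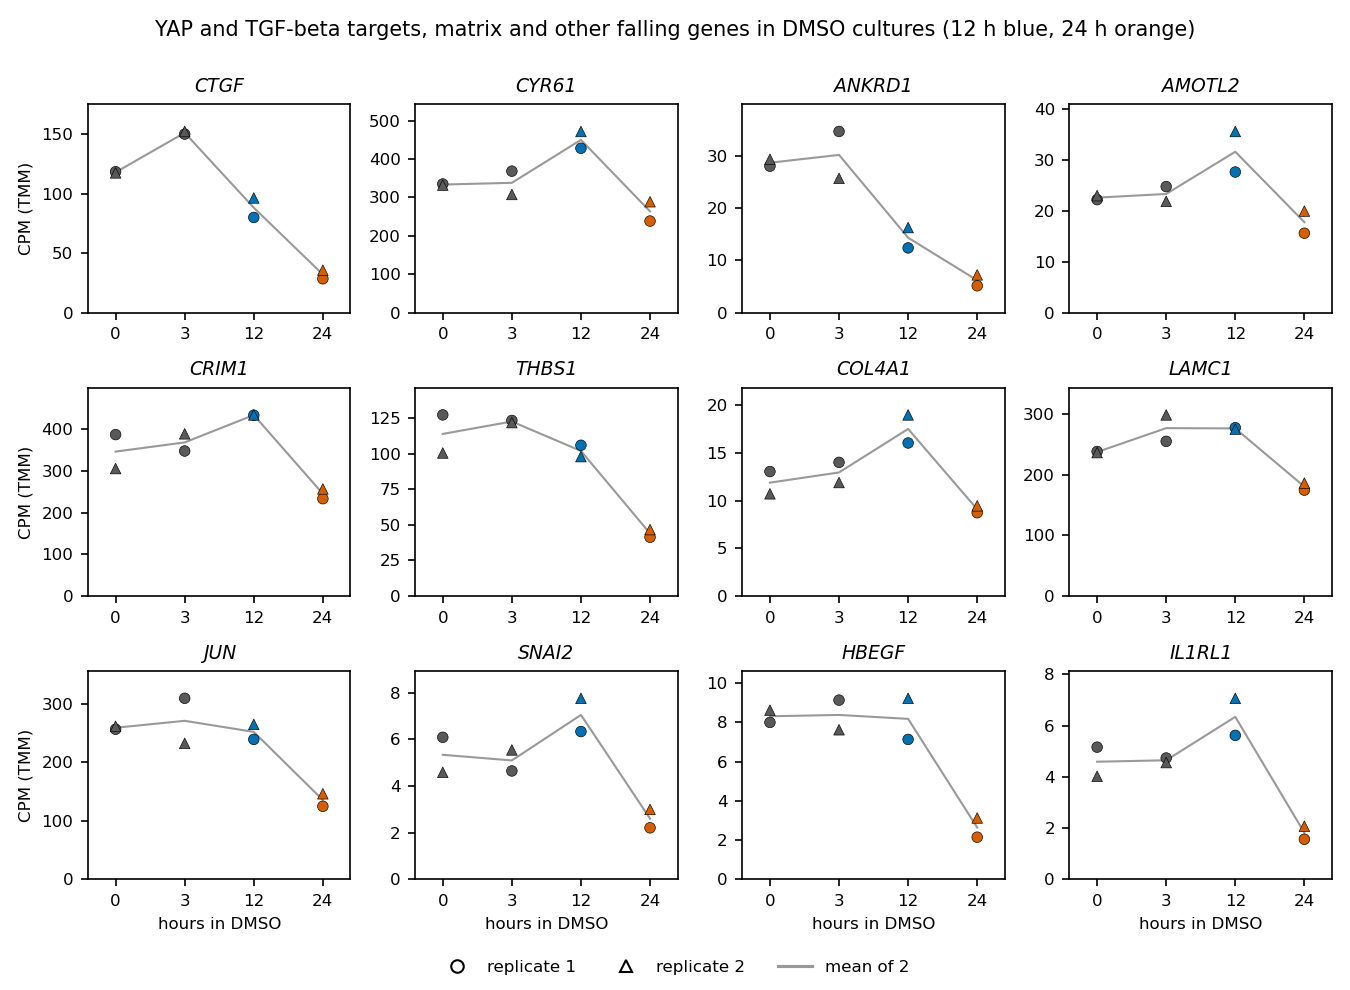
Level in CPM (vertical axes, from 0, each with its own scale) of 12 genes that fell, against hours in DMSO (horizontal axes), drawn with replicate 1 as circles, replicate 2 as triangles and the mean of the 2 as a line. In each panel both 24 h libraries (orange) lie below both 12 h libraries (blue): CTGF went from 80.0 and 96.4 CPM to 28.5 and 35.7 CPM and COL4A1 from 16.03 and 19.0 CPM to 8.73 and 9.45 CPM.

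Genes of the extracellular matrix and its integrin receptors were lower in 4 of 14 cases and higher in 0, with a median of -0.53. Over all 15181 genes tested, 242 were called lower (1.59%). In this list 14 of 14 were below 0, against 7740 of the 15181. The basement membrane collagen COL4A1 fell from 16.03 and 19.0 CPM to 8.73 and 9.45 CPM, by 0.95 ± 0.176 (adjusted p = 0.0176), and the fibrillar collagen COL5A1 by 0.68 ± 0.149 (adjusted p = 0.0327). The laminin chain LAMC1 fell from 277.5 and 275 CPM to 175 and 186 CPM, by 0.61 ± 0.120 (adjusted p = 0.02). ITGA2, a collagen receptor subunit, went from 227 and 219 CPM to 101 and 97.0 CPM, a change of -1.18 ± 0.296 that did not pass (adjusted p = 0.0547). ITGB1, the shared beta subunit and the most abundant of the list, stood at 1888 and 1846 CPM and then at 1687 and 1559 CPM (-0.20 ± 0.197, adjusted p = 0.662). These transcripts are long, with a median of 6555 nt, and longer transcripts were relatively more abundant at 12 h as described above. After correction for GC content and length the median was -0.39 and 7 of 14 passed, all lower. Without DMSO 12 h replicate 1, DMSO 12 h replicate 2, DMSO 24 h replicate 1 and DMSO 24 h replicate 2, 0, 0, 0 and 1 members passed.

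The 12 largest falls by the same rule included cell surface, coagulation and cytoskeletal genes besides CTGF. IL1RL1, the receptor for the alarmin interleukin 33, fell most of them, from 5.62 and 7.06 CPM to 1.57 and 2.08 CPM, by 1.80 ± 0.240 (adjusted p = 0.00372). HBEGF, a ligand of the EGF receptor, fell from 7.12 and 9.21 CPM to 2.15 and 3.13 CPM, by 1.63 ± 0.260 (adjusted p = 0.00937). The receptor gene EGFR itself, named after its values were seen, fell from 375 and 362 CPM to 177 and 192 CPM, by 0.998 ± 0.166 (adjusted p = 0.0105). The corrected fall of EGFR was 0.78 on the log2 scale (-0.78, adjusted p = 0.00253). The coagulation genes THBD, for thrombomodulin (-1.47 ± 0.320, adjusted p = 0.0321), and F3, for tissue factor (-1.38 ± 0.250, adjusted p = 0.0157), fell at levels under 5 CPM. The ubiquitin ligase MARCH4 fell from 32.7 and 40.7 CPM to 10.2 and 13.8 CPM (-1.62 ± 0.188, adjusted p = 0.00144). SNAI2, a repressor of epithelial genes, fell from 6.34 and 7.76 CPM to 2.21 and 3.00 CPM, by 1.44 ± 0.261 (adjusted p = 0.0159). The actin-binding coronin CORO2B (-1.44 ± 0.203), KIAA1549L (-1.44 ± 0.160), the GTPase regulator ARHGAP22 (-1.39 ± 0.218) and the monoacylglycerol lipase MGLL (-1.37 ± 0.226) also fell. PODXL, a sialomucin of the cell surface, was picked later for its small p and fell by 1.18 ± 0.129 (adjusted p = 0.00117). Of the 12 largest falls 5, 1, 0 and 8 still passed without DMSO 12 h replicate 1, DMSO 12 h replicate 2, DMSO 24 h replicate 1 and DMSO 24 h replicate 2, and 12 of 12 kept their direction. MGLL ranged from -1.79 to -1.04 over these cases. As for the rises, the rule of no overlap largely fixes the directions of the 12 falls.

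Immediate early genes, the first to answer growth factors, were lower in 3 of 15 cases and higher in 0, with a median of -0.34. Over all 15181 genes tested, 242 were called lower (1.59%). In this list 15 of 15 were below 0, against 7740 of the 15181. JUN, a subunit of the AP-1 factor, fell from 239 and 265 CPM to 125 and 146 CPM, by 0.89 ± 0.146 (adjusted p = 0.0103). KLF10, a TGF-beta inducible gene, fell by 0.63 ± 0.153 (adjusted p = 0.0469) and KLF4 by 0.63 ± 0.144 (adjusted p = 0.0389). EGR1, at 1.99 and 2.27 CPM and then 0.676 and 1.597 CPM, did not pass (-0.91 ± 0.420, adjusted p = 0.28). DUSP5, DUSP10 and SPRY2, which damp the MAP kinase pathways, were named after their values were seen and fell by 0.78 ± 0.183 (adjusted p = 0.0412), 1.04 ± 0.183 (adjusted p = 0.0137) and 0.73 ± 0.160 (adjusted p = 0.0335). After the GC and length correction 5 of the 15 immediate early genes passed, all lower, and without DMSO 24 h replicate 2 their median was -0.55. JUN passed only without DMSO 24 h replicate 2, and KLF10, KLF4, DUSP5, DUSP10 and SPRY2 passed in 0 of the 4 cases that left out a library.

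In the epithelial list 2 of 12 members rose and 1 fell, with a median of 0.26 that was 0.11 after the GC and length correction. All genes tested had 0.751% higher and 1.59% lower. ELF3 is given above. TJP3, a scaffold of tight junctions, went from 0.959 and 0.333 CPM to 3.35 and 2.30 CPM (2.15 ± 0.497, adjusted p = 0.0408), and its change ran from 1.59 to 3.11 when a library was left out. The tight junction gene CLDN1 fell by 0.94 ± 0.157 (adjusted p = 0.0105), from 45.0 and 50.7 CPM to 22.9 and 26.9 CPM. Of 8 mesenchymal genes SNAI2 alone passed. VIM, for vimentin, stood at 2251 and 2226 CPM and then at 2005 and 2150 CPM (-0.11 ± 0.153, adjusted p = 0.785), and CDH1, for E-cadherin, was at most 1.08 CPM in these 4 libraries. Of 15 clock genes DBP rose by 0.89 ± 0.211 (adjusted p = 0.0428) and NR1D1, which represses clock genes, fell by 1.27 ± 0.254 (adjusted p = 0.0223). ELF3, TJP3, CLDN1, SNAI2, DBP and NR1D1 each lost the call without any 1 of the 4 libraries.

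**Figure D3:**
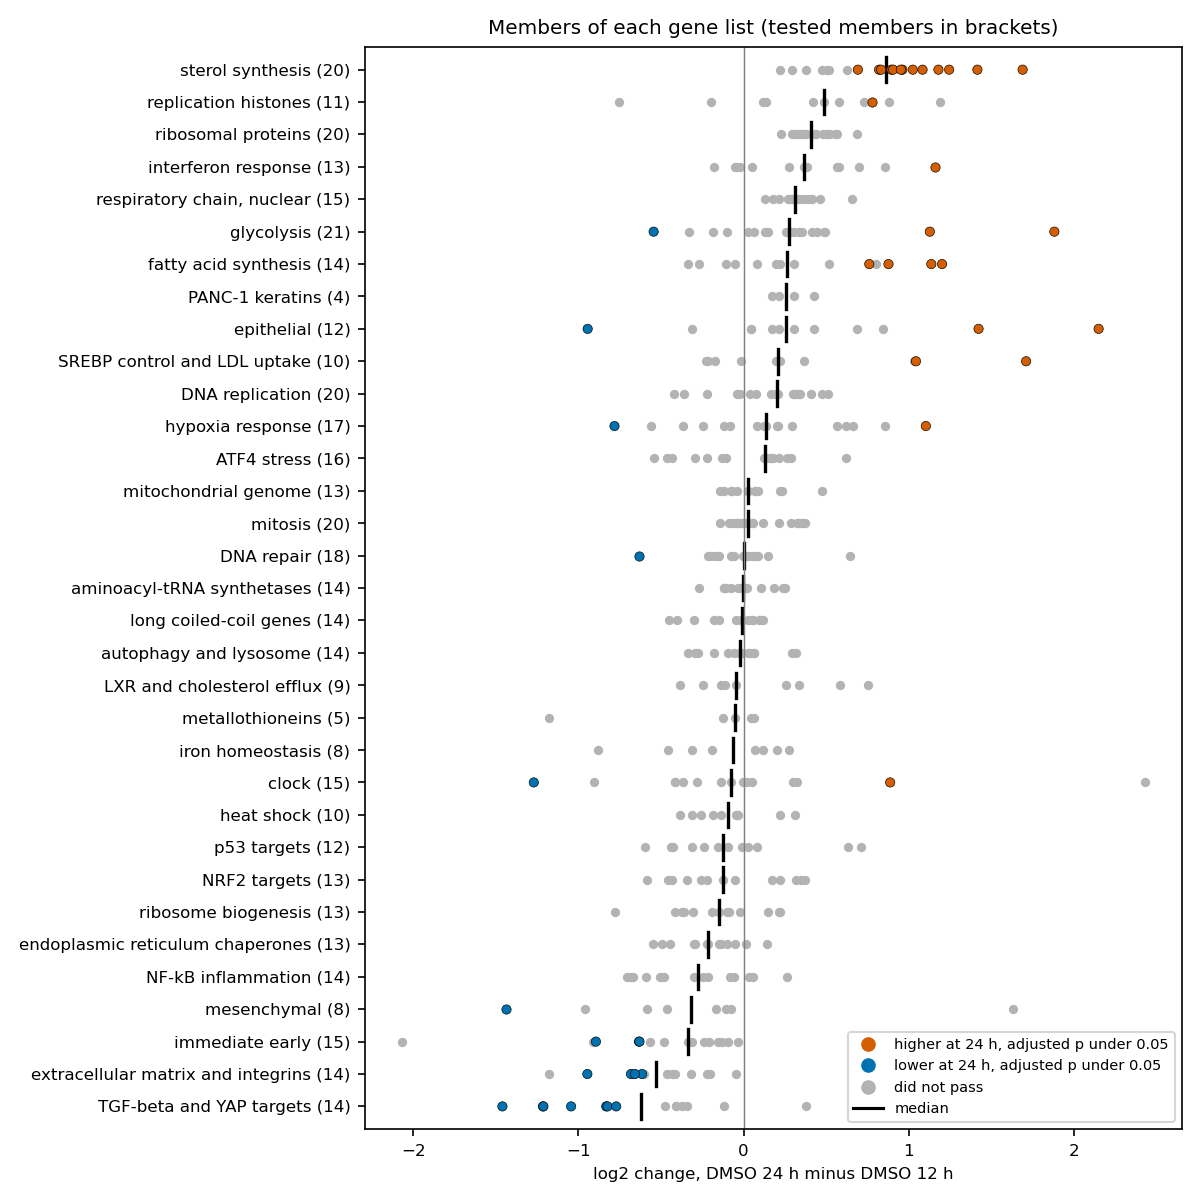
Change from 12 h to 24 h in DMSO on the log2 scale (horizontal axis) of the tested members of each gene list (rows, with the number tested in brackets), with 1 point a gene and a black bar at each list's median. Orange points rose and blue points fell at an adjusted p under 0.05, and grey points did not pass: sterol synthesis has the highest median (0.86) and TGF-beta and YAP targets the lowest (-0.62).

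In other lists few or no members passed, where all genes tested had 0.751% higher and 1.59% lower. PRKDC, the DNA-dependent protein kinase, fell by 0.63 ± 0.128 (adjusted p = 0.0224) among 18 DNA repair genes, HIST1H1C, a linker histone, rose by 0.78 ± 0.143 (adjusted p = 0.0171) among 11 histone genes, and IFIT1 rose by 1.16 ± 0.224 (adjusted p = 0.0196) among 13 interferon genes. All 3 lost the call without any 1 of the 4 libraries. In 23 of the lists 0 members passed in edgeR, and of their 253 tested members 65 had an unadjusted p under 0.05 and 13 passed in DESeq2. After the GC and length correction some of these lists did have calls. Among them were ATF4 stress genes (1 higher, 3 lower), NRF2 targets (1 higher, 2 lower) and DNA replication (2 higher, 1 lower). Heat shock and NF-kB genes then had 2 lower each. The same corrected fit called 351 higher and 574 lower of all 15181 genes, so counts this small are not read as results of these lists. Of 20 DNA replication genes 8 had an unadjusted p under 0.05 and 2 passed in DESeq2 (median 0.20), and of 20 mitosis genes these were 2 and 0 (median 0.03). MKI67, a marker of cycling cells, stood at 1152 and 1041 CPM and then at 760 and 844 CPM (-0.45 ± 0.154, adjusted p = 0.144). The cell cycle inhibitor CDKN1A stood at 17.5 and 19.2 CPM and then 17.9 and 20.9 CPM (0.08 ± 0.177, adjusted p = 0.864). TXNIP, which limits glucose uptake, stood at 0.65 ± 0.251 (adjusted p = 0.202). Lists leave out symbols that several tested genes share, and of the nuclear RNAs this removed MALAT1, which made up most of their sum above. The change of MALAT1 is therefore not given. NEAT1, the only member of that list left, stood at 224 and 217 CPM and then at 365 and 319 CPM. Its change of 0.63 ± 0.167 did not pass (adjusted p = 0.066), and after correction for its GC content and length of 22743 nt it was 0.86 (adjusted p = 0.0061). The other such lists were ATF4 stress genes (median 0.13), aminoacyl-tRNA synthetases (-0.01), endoplasmic reticulum chaperones (-0.21), heat shock genes (-0.09), NRF2 targets (-0.13), p53 targets (-0.12), NF-kB genes (-0.27), metallothioneins (-0.05), iron genes (-0.06), autophagy and lysosome genes (-0.02), ribosome biogenesis (-0.15), mitochondrially encoded genes (0.03), keratins (0.26) and long coiled-coil genes (-0.01). Over all 15181 genes tested, 9362 had both 24 h libraries beyond both 12 h libraries in either direction. An unadjusted p under 0.05 in edgeR was seen in 2672 of them all. Ribosomal protein genes had a median of 0.41, with both 24 h libraries above both 12 h libraries in 20 of 20. Of these, 15 had an unadjusted p under 0.05 and 2 passed the threshold in DESeq2. Nuclear genes of the respiratory chain had a median of 0.31, with the same separation in 15 of 15, 8 at an unadjusted p under 0.05 and 0 past the threshold in DESeq2. Some of these list medians moved. After the GC and length correction that of keratins was 0.11, ATF4 stress genes -0.01, metallothioneins -0.25 and long coiled-coil genes 0.19. Without DMSO 12 h replicate 2 the median of NF-kB genes was -0.15 and that of ribosome biogenesis -0.02. That of chaperones was -0.11 without DMSO 24 h replicate 2. DNA replication stood at 0.30 without DMSO 24 h replicate 1 and 0.13 without DMSO 24 h replicate 2. The transcripts of the ribosomal protein and respiratory chain lists are short, with medians of 1270.5 and 1985 nt, and after correction for GC content and length their medians were 0.29 and 0.20, with 1 member past the threshold in each.

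Levels at 24 h were below the 0 h level for some of the genes that fell. In DMSO at 24 h minus 0 h, which shares the 24 h libraries with the main comparison, CTGF stood at -1.88 (adjusted p = 0.000178) and ANKRD1 at -2.21 (adjusted p = 0.00017). AMOTL2 stood at -0.35 (adjusted p = 0.31) and ARHGAP22 at 0.09 (adjusted p = 0.879), after values of 0.48 and 1.48 at 12 h minus 0 h. In this comparison 5 of 14 TGF-beta and YAP targets and 1 of 14 matrix genes were lower, against 293 of all 15181 genes. Other lists had more, with 10 of 14 NF-kB genes and 6 of 15 immediate early genes lower at 24 h than at 0 h. Of genes that rose, INSIG1 (1.20, adjusted p = 0.00323), DHRS3 (1.07, adjusted p = 0.00566), RHOV (1.58, adjusted p = 0.00214) and CCNG2 (1.65, adjusted p = 0.000836) stood above 0 h at 24 h. Against DMSO at 3 h, which also shares the 24 h libraries, 671 genes passed at 24 h (4.42%), 178 higher and 493 lower.

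The same interval in PA, which shares no library with the DMSO comparison, had 2171 genes past the threshold (14.3%), 1001 higher (6.59%) and 1170 lower (7.71%). Of the 114 genes that rose in DMSO, 58 also rose in PA (50.9%) and 0 fell, and of the 242 that fell, 120 also fell (49.6%) and 5 rose. These are 5.79% of the PA rises and 10.3% of the PA falls. Over the 114 the median change in PA was 0.62 and over the 242 it was -0.48. MVD (1.05 ± 0.199, adjusted p = 0.00532), ALDOC (1.27 ± 0.306, adjusted p = 0.0166) and TM7SF2 (1.42, adjusted p = 0.00224) rose in PA too, and MARCH4 (-1.37 ± 0.196, adjusted p = 0.0014), THBS1 (-1.55, adjusted p = 0.00141) and KIAA1549L (-1.27 ± 0.165, adjusted p = 0.000864) fell in both. Of the sterol list 5 of 20 rose in PA, with a median of 0.29, and of the TGF-beta and YAP targets 3 of 14 fell and 1 rose. Such counts are no test of a difference between the arms, which is given next.

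The difference between the arms over this interval was tested directly, and 64 genes passed (0.422%), 40 with a higher change in PA (0.263%) and 24 with a lower one (0.158%). Of the genes that passed in DMSO, 22 were among them, 20 that fell in DMSO and 2 that rose, INSIG1 and CTD-2636A23.2. In the sterol list 0 of 20 members differed between the arms, with a median difference of -0.43. Of the 14 TGF-beta and YAP targets 3 differed, all with a higher change in PA, and the median difference was 0.23. INSIG1 stood at 481 CPM in both PA 12 h libraries and at 525 and 547 CPM at 24 h, far above DMSO at both times, and its difference between arms was -1.55 ± 0.251 (adjusted p = 0.0205). This difference did not pass in 5 of the 8 fits that left out a library of either arm, where it ran from -1.77 to -1.39 over the 8 with adjusted p up to 0.178: those without DMSO 12 h replicate 1, DMSO 12 h replicate 2, DMSO 24 h replicate 1, PA 24 h replicate 1 and PA 24 h replicate 2. HBEGF went from 1.55 and 2.64 CPM to 8.53 and 9.20 CPM in PA, opposite to DMSO, a difference of 3.71 ± 0.375 (adjusted p = 0.00187) that passed in 8 of the 8 fits. The 5 genes that fell in DMSO and rose in PA were HBEGF, ANKRD1, DUSP5, DUSP10 and SPRY2. JUN (difference 1.21 ± 0.206, adjusted p = 0.0267) and CTGF (1.36 ± 0.262, adjusted p = 0.0422) fell in DMSO and did not pass in PA, and the difference of each passed in 2 of the 8 fits. The number of genes that differed between the arms ran from 4, without DMSO 12 h replicate 2 or DMSO 24 h replicate 1, to 522, without PA 12 h replicate 1. It was 8, 14, 22 and 316 without DMSO 12 h replicate 1, DMSO 24 h replicate 2, PA 24 h replicate 1 and PA 12 h replicate 2. The PA 12 h replicates were the least alike of all groups (Spearman correlation 0.978 across genes).

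**Figure D4:**
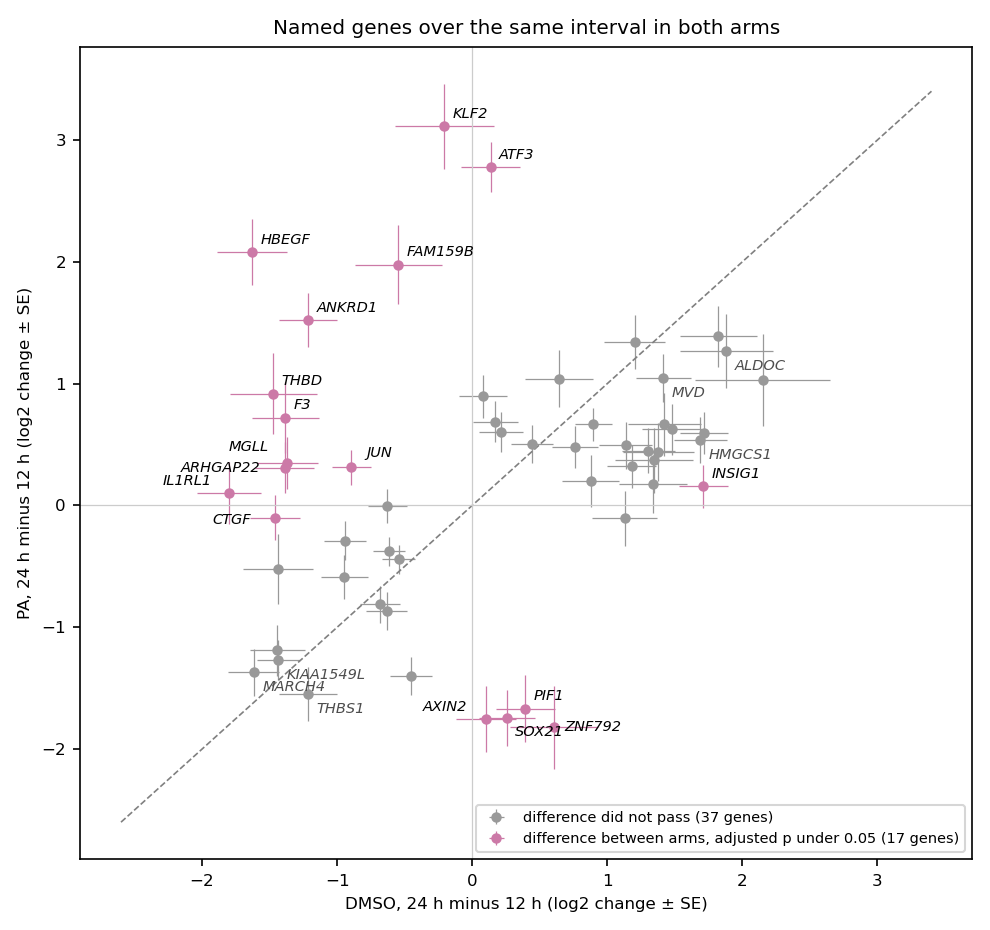
Change from 12 h to 24 h on the log2 scale in DMSO (horizontal axis) and in PA (vertical axis) for 54 named genes, with SE bars and a dashed line where both changes are equal. The 17 genes in pink differed between the arms at an adjusted p under 0.05: HBEGF stood at -1.63 in DMSO and 2.08 in PA, and INSIG1 at 1.71 and 0.16, while MVD and THBS1 lie near the line.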

How the data were processed

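RNA from PANC-1 cultures was sequenced as paired reads of 151 nt. The deposited counts are whole reads per gene, and the deposited RPKM values, made by the authors, served only as an alternative. Per the submitters' processing notes TopHat2, edgeR and GRCh38 were used, while the counting program, annotation release and strand setting were not stated in any source used here. Counts were fitted with edgeR 4.0.16 (quasi-likelihood, trimmed-mean scaling, R 4.3.3) over all 14 libraries with 1 mean for each of 7 groups, which leaves 7 residual degrees of freedom, after a filter on low counts. Tests were two-sided with Benjamini-Hochberg adjustment over all 15181 genes and a threshold of 0.05. SE is the size of the log2 change over the square root of F. The members and gene lists were chosen with earlier results of these data known.

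The genes named are the 12 largest rises and falls with a mean of at least 2 CPM and groups that do not overlap, leaving out clone names and symbols shared by several genes, the 5 largest differences each way between the arms, up to 4 called members of lists with at least 3, and a fixed set of 10. Other list members are named to describe their list, and DEPTOR, PIK3IP1, EGFR, CTD-2636A23.2, PODXL, DUSP5, DUSP10 and SPRY2 were named after their values were seen. Equal replicate numbers were not treated as pairs: the correlation of deviations was over 0.1 in 2 of 21 pairs of groups and 0.0426 between DMSO 12 h and 24 h. Over the 21 it ran from -0.218 to 0.244. With 2 libraries per group this cannot tell whether equal numbers share a culture or batch. The correction for GC content and length used splines of 5 degrees of freedom on the longest basic GENCODE 29 transcript, known for 15071 tested genes (99.28%). Alternatives were DESeq2 1.42.0, limma 3.58.1 on log2(RPKM + 1) and log2(RPKM + 0.1), other scaling and filters, fewer libraries, and leaving out each library. The fits were checked on simulated data. Some genes are counted in the totals and lists but not reported here.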

Additional observations from a re-analysis of the deposited data

Results flagged for a closer look

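For 21 named genes the change from 12 h to 24 h differed between PA and DMSO at an adjusted p under 0.05 in edgeR, by the test of the difference itself. Values are the change in PA minus that in DMSO on the log2 scale, and each arm's own change is given where it helps.

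The difference was positive for HBEGF at 3.71, with -1.63 in DMSO and 2.08 in PA. It was 3.318 for KLF2, 2.735 for ANKRD1 and 2.642 for ATF3, of which KLF2 (-0.21) and ATF3 (0.14) did not pass in DMSO. FAM159B stood at 2.522, and the coagulation genes THBD at 2.391 and F3 at 2.104. DUSP5 stood at 1.969, IL1RL1 at 1.9, MGLL at 1.717, ARHGAP22 at 1.696 and DUSP10 at 1.673. The smallest positive differences in this set were CTGF at 1.361, SPRY2 at 1.228 and JUN at 1.206.

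The difference was negative for ZNF792 at -2.424, PIF1 at -2.06, SOX21 at -1.998 and AXIN2 at -1.853, each of which fell in PA (-1.82, -1.67, -1.74 and -1.75) and did not pass in DMSO. It was -1.554 for INSIG1 and -1.281 for CTD-2636A23.2, the antisense RNA whose reads cannot be told apart from those of HMGCS1. The PA 12 h replicates were the least alike of all groups, and the count of genes that differ moved from 64 to 522 without PA 12 h replicate 1 and to 4 without DMSO 12 h replicate 2. With each of the 8 libraries left out in turn, HBEGF, ANKRD1 and ATF3 passed in 8 fits, DUSP5 in 6, KLF2 in 5, DUSP10 in 4 and the others in 2 or 3. The part of that spread in these differences was not tested.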

How the results depend on the processing

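The 356 genes that passed between 12 and 24 h (114 higher, 242 lower) became 817 with DESeq2 (344 and 473), 925 with the GC content and length correction (351 and 574), 1912 with the 8 DMSO libraries alone (875 and 1037) and 3947 with the 4 libraries alone (1885 and 2062). Without the low-count filter 651 passed (360 higher), and limma on log2(RPKM + 1) and log2(RPKM + 0.1) called 172 and 180 genes higher. Leaving out 1 library, where the lone sample of a group is assumed to vary like the other groups, gave 3 to 58 genes (3 to 24 higher, 0 to 34 lower), with DMSO 24 h replicate 1 and DMSO 24 h replicate 2 at the ends of the total. With the replicate block 198 passed (62 higher, 136 lower), and with the block and the GC content and length correction 778 (284 and 494). Whether the replicate numbers pair the libraries is not known. The 64 genes that differed between the arms became 203 with DESeq2, 315 with the correction, 23 with the replicate block, 253 with both, and 4 to 522 when a library was left out. The sterol count of 13 ran from 0 to 7 without 1 library. The fatty acid count of 4 was 7 with the correction, with the block and correction and with the 4 libraries alone, and 0 to 2 without 1 library. The immediate early count of 3 was 1 with the replicate block, 5 with the correction, 6 with the 4 libraries alone and 0 to 1 without 1 library. The count of 7 for TGF-beta and YAP targets was 12 with the 4 libraries alone and 0 to 3 without 1 library. The matrix count of 4 was 7 with the correction, 11 with the 4 libraries alone, 10 with the 8 DMSO libraries and 0 to 1 without 1 library. The cause of these shifts was not tested. None of the 59 named changes passed in the opposite direction in the alternatives run. Many of these genes had groups that do not overlap, which largely fixes their direction when 1 library is left out.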
